A study of Saccharomyces cerevisiae with 59 samples.

Results

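The genes described here encode 8 proteins that form or control SBF and MBF, the transcription factors that switch on the G1/S genes of budding yeast. They are SWI4, SWI6, MBP1, WHI5, STB1, NRM1, YOX1 and YHP1. They were chosen by name and not by a rule on measured values, but with earlier results of these data known. All 8 were among the 5590 genes listed in each of the 4 tables, which give RNA, a promoter score and 2 measures of gene-body chromatin.

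Saccharomyces cerevisiae cells of the W303 background were grown in YPD at 30 °C, held in G1 for 2 h with 50 ng/mL α-factor, released and sampled every 10 min. All samples shared 1 genotype, MATa with ade2-1, his3-11,15, can1-100 and leu2-3,112, which also carried URA3::BrdU-Inc and BAR1::TRP. Of the 59 libraries, 30 were MNase-seq and 29 were total RNA, with 2 biological replicates for each of the 15 time points and a single RNA library at 110 min. The released time points ran from 10 to 140 min, and the arrested sample, taken before release, is the 0 min time point. By the labels, the aligned 10 min sample was taken 20 min after release in Replicate 1 and 10 min after it in Replicate 2. The first cycle is taken here as 10 to 60 min and the second as 70 to 120 min.

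SBF consists of Swi4, which binds the SCB element, and Swi6. MBF consists of Mbp1, which binds the MCB element, and the same Swi6. Whi5 holds SBF inactive in early G1 until the G1 cyclin-dependent kinase, with Cln3, releases it. Nrm1 turns MBF targets off after the start of S phase, and Stb1 binds Swi6. Yox1 and Yhp1 are homeodomain repressors that act beside Mcm1 at early cell cycle boxes, the elements that drive SWI4 and other genes at the M/G1 transition. α-factor stops cells before SBF and MBF are switched on, so that release lets the whole set of G1/S genes be switched on.

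Each value is the authors' merged value of a time point, without a standard deviation, so that no difference between time points was tested. Differences are given as folds, and each count of members past a fold is set beside the share of all 5590 genes past the same fold. The RNA values come from a table named TPM, a level per length of transcript, whose columns summed to between 949828 at 10 min and 1041385 at 110 min. In bulk samples, fewer cells that express a gene and less RNA per cell cannot be told apart. The median standardized RNA of 6 G1/S genes was highest at 10 and 70 min, that of 8 core histone genes at 20 and 80 min and that of 5 G2/M genes at 50 and 110 min. The 5 M/G1 genes were highest at 60 min in the first cycle and at 70 min afterwards. These are neighbouring time points on either side of the boundary between the cycles used here. They may belong to 1 rise cut by that boundary, so whether these genes repeated cannot be read from them. At the arrest the 4 pheromone response genes stood highest, and the mating type a genes were expressed throughout.

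The promoters of STB1, YOX1 and YHP1, whose RNA varied at least 2-fold in both cycles, are shown here because SBF, MBF, Mcm1 and the homeodomain repressors are known to act through elements in promoters. Each sequence is the 250 bases before the transcription start given in the tables, on the coding strand, read from the R64 genome. The start is used as tabulated, and a shift of 1 base cannot be told apart. Capitals mark exact matches, on either strand, of the MCB (ACGCGT), the SCB (CACGAAA or CGCGAAA), the homeodomain core (TAATTA) and the Mcm1 palindrome (CCNNNNNNGG). The regions are chrXIV:52347-52596, plus strand for STB1, chrXIII:220940-221189, plus strand for YOX1 and chrIV:1362235-1362484, minus strand for YHP1.
STB1: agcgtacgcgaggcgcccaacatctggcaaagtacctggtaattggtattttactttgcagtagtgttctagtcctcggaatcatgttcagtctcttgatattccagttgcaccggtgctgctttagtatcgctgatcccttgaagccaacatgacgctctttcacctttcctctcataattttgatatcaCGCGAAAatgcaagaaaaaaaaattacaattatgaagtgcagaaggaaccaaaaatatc
YOX1: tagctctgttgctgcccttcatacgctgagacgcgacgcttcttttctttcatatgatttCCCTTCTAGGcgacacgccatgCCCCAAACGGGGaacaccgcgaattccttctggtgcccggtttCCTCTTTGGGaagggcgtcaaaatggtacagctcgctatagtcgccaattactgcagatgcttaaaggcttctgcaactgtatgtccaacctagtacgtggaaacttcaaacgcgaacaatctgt
YHP1: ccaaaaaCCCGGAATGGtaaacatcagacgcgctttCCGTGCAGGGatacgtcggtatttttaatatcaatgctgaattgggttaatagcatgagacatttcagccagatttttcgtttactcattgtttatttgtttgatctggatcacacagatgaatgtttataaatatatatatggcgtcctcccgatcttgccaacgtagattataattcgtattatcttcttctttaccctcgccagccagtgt

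STB1 held a single SCB, which began at base -59 counted from the transcription start. YHP1 held Mcm1 palindromes at -243 and -214. YOX1 had 5 palindrome matches, 3 of them overlapping one another by all but 1 base each. SWI6, MBP1 and WHI5 had no match in this window. In windows that also took in the 50 bases from the start onwards, an MCB was found in 3.94% of all 5590 promoters, an SCB in 9.18%, TAATTA in 16.4% and the palindrome in 31.2%. A palindrome is thus a common match, and each match is a description of the letters and not a site of binding. With 600 bases before the start, YOX1 also held an MCB at -281, and MBP1 held TAATTA at -370 and a palindrome at -565. YHP1 held TAATTA at -462 and further palindromes at -295 and -272. In this window MCBs were found in 6.64% of all promoters, SCBs in 14.3%, TAATTA in 25.9% and palindromes in 60.2%.

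At the release from the arrest, 5 of the 8 members had at least 2-fold more RNA at 10 min than at the arrest, against 9.62% of all genes in that direction. These were YOX1, NRM1, SWI4, YHP1 and STB1, and with a pseudocount of 10 YHP1 did not pass. None was 2-fold lower, against 4.36% of all genes. YOX1 had an RNA value of 106 at 10 min, against 1.13 at the arrest, a difference of 5.65 on the log2(value + 1) scale, and ranked 3 among all genes. NRM1 had 32.8 at 10 min against 3.11 at the arrest (log2 difference 3.04, rank 31). SWI4 had 60.4 against 12.9 (2.14, rank 81), YHP1 had 15.3 against 2.82 (2.10, rank 89) and STB1 had 26.2 against 6.84 (1.80, rank 155). The members that did not pass the fold were WHI5, with 12.3 at 10 min against 6.70 at the arrest, SWI6, with 39.5 against 33.1, and MBP1, with 23.3 against 21.2. The median gene differed by 0.044 on the same scale. The arrest was the lowest of the 15 time points in STB1, NRM1, YOX1 and YHP1, that is 4 of the 8 members, against 29.2% of all genes.

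Within the cycles, 5 of the 8 members had an RNA swing of at least 2-fold in both cycles, against 4.36% of all genes. The swing is the highest minus the lowest log2(value + 1) within a cycle. The 5 were SWI4, STB1, NRM1, YOX1 and YHP1, the same 5 that passed the fold at release, in which the 10 min value enters both counts. Without 70 min, 3 members remained past the fold, SWI4, NRM1 and YOX1, against 3.26% of all genes. The same 3 remained with cycles of 20 to 70 and 80 to 130 min, against 3.60%. With a pseudocount of 10 the members past the fold were SWI4, YOX1 and YHP1, against 2.47%. The median swings of the members were 1.60 and 1.13 in the first and second cycle, beside 0.40 and 0.32 over all genes. In the first cycle alone 6 members passed the fold, WHI5 being the other one, against 13.2% of all genes. All 8 members had their highest RNA of the second cycle within 10 min of 60 min after that of the first, against 58.5% of all genes. Both conditions together were met by 5 members and by 3.4% of all genes.

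**Figure D1:**
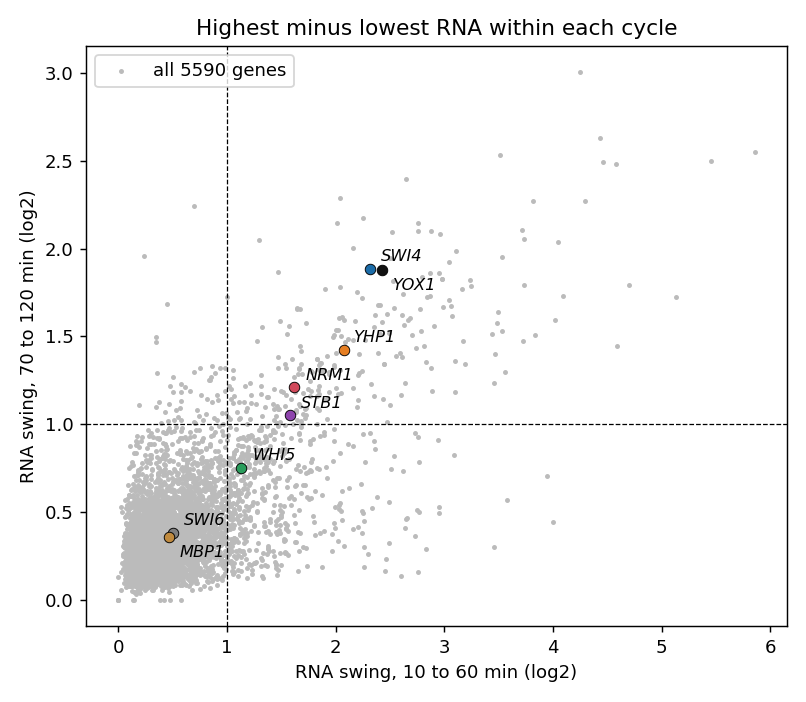
RNA swing of every gene, as the highest minus the lowest log2(value + 1) from 10 to 60 min (x axis) and from 70 to 120 min (y axis). Grey points are all 5590 genes, coloured points the 8 members and dashed lines the 2-fold threshold. SWI4, YOX1, YHP1, NRM1 and STB1 lie above both lines, WHI5 passes only that of the first cycle, and SWI6 and MBP1 lie among the bulk of the genes.

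SWI4 encodes the DNA-binding subunit of SBF and lies on chromosome V from 382595 to 385876 on the minus strand (YER111C, R64). Its RNA value was 12.9 at the arrest, 60.4, 35.6, 17.9, 11.3, 17.5, 40.7 from 10 to 60 min, 51.9, 30.3, 17.6, 13.3, 13.8, 27.3 from 70 to 120 min, and 34.1 and 26.5 at 130 and 140 min. It was highest at 10 and 70 min and lowest at 40 and 100 min, and it was already 40.7 at 60 min, before the G1/S genes reached their second maximum. Its swings of 2.31 and 1.89 placed it at rank 27 of all genes by the smaller of both. Its promoter score was 0.0302 at the arrest, 0.0361, 0.0340, 0.0276, 0.0274, 0.0301, 0.0321 from 10 to 60 min, 0.0341, 0.0301, 0.0267, 0.0240, 0.0254, 0.0253 from 70 to 120 min, and 0.0253 and 0.0248 at 130 and 140 min. Relative to the median of all promoters at each time, this score was high at 10, 20, 60 and 70 min and low at 40 and 100 min, and it moved with the RNA with Pearson's r = 0.91 (rank 32 of 5590 genes). The gene-body nucleosome score of SWI4 was lowest at 70 min, at 0.0440, against 0.0541 at the arrest. The gene-body entropy, which is higher where nucleosomes are less regularly placed, was 5.788 at the arrest, 6.016, 5.919, 5.940, 5.843, 5.779, 5.882 from 10 to 60 min, 5.988, 5.902, 5.906, 5.862, 5.785, 5.887 from 70 to 120 min, and 5.849 and 5.874 at 130 and 140 min. SWI4 thus had its 2 highest entropies at the time points of its 2 highest RNA values.

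MBP1 encodes the DNA-binding subunit of MBF (YDL056W, chromosome IV, 352877 to 355378, plus strand). The RNA value of MBP1 was 21.2 at the arrest, 23.3, 26.8, 28.4, 26.2, 23.6, 20.2 from 10 to 60 min, 24.6, 24.8, 26.8, 25.1, 23.3, 20.7 from 70 to 120 min, and 22.0 and 23.4 at 130 and 140 min. The values stayed between 20.2 and 28.4, with swings of 0.47 and 0.36, close to the medians of all genes. SWI4 and MBP1 therefore changed places over the cycle. SWI4 had more RNA than MBP1 at 8 of the 15 time points, by 2.59-fold at 10 min, and less at the others, with 0.43 times the MBP1 level at 40 min. The promoter score of MBP1 was between 0.00894 and 0.0165, and its gene-body nucleosome score was 0.0548 at the arrest and between 0.0406 and 0.0496 after release.

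SWI6 encodes the subunit shared by both factors (YLR182W, chromosome XII, 517940 to 520351, plus strand). SWI6 had an RNA value of 33.1 at the arrest, 39.5, 45.5, 42.3, 37.4, 32.6, 31.8 from 10 to 60 min, 37.6, 40.0, 41.1, 37.1, 33.4, 31.3 from 70 to 120 min, and 36.3 and 41.8 at 130 and 140 min. The highest value was 1.45 times the lowest, and neither cycle passed the 2-fold threshold. The maxima fell at 20 and 90 min. The promoter score of SWI6 ranged from 0.0114 to 0.0195 and its nucleosome score from 0.0417 to 0.0498. SWI4 exceeded SWI6 in RNA at 3 of the 15 time points, so that for most of the series the partner SWI6 had the higher level.

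WHI5 encodes the inhibitor of SBF (YOR083W, chromosome XV, 479533 to 480420, plus strand) and had the lowest mean RNA of the set. The RNA value of this gene was 6.70 at the arrest, 12.3, 13.7, 12.3, 9.11, 5.73, 6.33 from 10 to 60 min, 6.98, 11.5, 11.5, 9.44, 8.35, 6.44 from 70 to 120 min, and 8.88 and 10.7 at 130 and 140 min. It was highest at 20 and at 80 and 90 min and lowest at 50, 60 and 120 min, with swings of 1.13 and 0.75. SWI4 had more RNA than WHI5 at all 15 time points. The ratio of SWI4 to WHI5 was 7.44 at 70 min, 6.43 at 60 min and 4.90 at 10 min, and 1.24 at its lowest, at 40 min. The gene-body nucleosome score of WHI5 was 0.0272 at the arrest, 0.0235, 0.0249, 0.0300, 0.0336, 0.0389, 0.0402 from 10 to 60 min, 0.0370, 0.0336, 0.0316, 0.0327, 0.0355, 0.0384 from 70 to 120 min, and 0.0354 and 0.0324 at 130 and 140 min. This score was low at 10 and 20 min and high at 50 and 60 min, with relative swings of 1.66-fold and 1.18-fold in the first and second cycle.

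NRM1 encodes the co-repressor of MBF (YNR009W, chromosome XIV, 642690 to 643439, plus strand). Its RNA value was 3.11 at the arrest, 32.8, 41.6, 52.0, 39.8, 22.6, 16.2 from 10 to 60 min, 30.7, 44.6, 50.5, 39.3, 30.9, 21.3 from 70 to 120 min, and 26.9 and 33.7 at 130 and 140 min. The maxima at 30 and 90 min came 20 min after those of SWI4 in both cycles. The value at 10 min was already 10.6 times that of the arrest, and the swings within the cycles were 1.62 and 1.21. Without 120 min the smaller swing was 0.70, under the threshold. The entropy of the NRM1 gene body was 5.700 at the arrest, 5.899, 5.989, 5.977, 5.995, 5.854, 5.752 from 10 to 60 min, 5.825, 5.990, 5.988, 5.965, 5.874, 5.869 from 70 to 120 min, and 5.842 and 5.947 at 130 and 140 min. It was high at 20 to 40 and at 80 to 100 min and low at the arrest and at 60 min. The relative promoter score of NRM1 swung 1.99-fold and 1.27-fold in the first and second cycle, with its low at 60 min.

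STB1 encodes the Swi6-binding protein (YNL309W, chromosome XIV, 52662 to 53924, plus strand). STB1 had an RNA value of 6.84 at the arrest, 26.2, 17.1, 10.5, 8.10, 8.84, 17.9 from 10 to 60 min, 18.5, 16.5, 12.2, 8.75, 8.39, 13.9 from 70 to 120 min, and 15.9 and 17.1 at 130 and 140 min. Like SWI4 it was highest at 10 and 70 min, and the RNA of both genes moved together with r = 0.96 over the 15 time points. Its swings were 1.58 and 1.05, so that the second cycle passed the 2-fold threshold narrowly. Without the 70 min time point the smaller swing was 0.90, without 110 min, which has 1 RNA library, it was 1.00 and below the threshold, and with upper-quartile scaling it was 0.90. The promoter score of STB1 was on average the lowest of the set, between 0.00674 and 0.0112, and its nucleosome score was the highest, between 0.0771 and 0.0952. STB1 starts 230 bp from ZIM17, a divergent gene for a mitochondrial protein. ZIM17 had its highest RNA at 10 min as well (67.7, against a median of 38.2), with swings of 1.31 and 0.72, and the RNA of both genes had r = 0.81.

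YOX1 encodes a homeodomain repressor of M/G1 genes (YML027W, chromosome XIII, 221406 to 222563, plus strand). The RNA value of YOX1 was 1.13 at the arrest, 106, 71.4, 53.7, 31.4, 18.9, 57.7 from 10 to 60 min, 84.0, 59.9, 39.2, 25.7, 22.1, 31.98 from 70 to 120 min, and 45.6 and 39.1 at 130 and 140 min. It had the highest RNA of all 8 members at 10 and 70 min and the lowest of all 8 at the arrest. Its swings of 2.42 and 1.88 gave rank 28. The gene-body nucleosome score of YOX1 was 0.0473 at the arrest, 0.0277, 0.0310, 0.0345, 0.0332, 0.0401, 0.0396 from 10 to 60 min, 0.0351, 0.0354, 0.0345, 0.0367, 0.0445, 0.0416 from 70 to 120 min, and 0.0451 and 0.0412 at 130 and 140 min. Relative to all genes, it was 0.74 lower on the log2 scale at 10 min than at the arrest, a fall that ranked 2 among all genes. The entropy of YOX1 was 5.83 at 10 min against 5.60 at the arrest, and it went on to 6.03 at 30 and 40 min. The promoter score was 0.0419 at 10 min against 0.0314 at the arrest.

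YHP1 encodes the second homeodomain repressor (YDR451C, chromosome IV, 1361120 to 1362181, minus strand). Its RNA value was 2.82 at the arrest, 15.3, 31.8, 67.8, 61.6, 35.7, 18.3 from 10 to 60 min, 19.2, 31.8, 53.3, 51.7, 40.7, 28.0 from 70 to 120 min, and 30.4 and 39.1 at 130 and 140 min. The maxima at 30 and 90 min came 20 min after those of YOX1 in both cycles. Over all 15 time points the RNA of both genes had r = 0.51. Both genes were lowest at the arrest, which enters this r, and r without the arrest was not calculated. It therefore does not show that they rose together after release. Its swings were 2.07 and 1.42, the smaller being 0.90 without 70 min. YHP1 was lowest of the released time points at 10 min, when YOX1 was highest. YOX1 had more RNA than YHP1 at 8 of the 15 time points. The promoter score of YHP1 was 0.0259 at the arrest, 0.0333, 0.0383, 0.0476, 0.0491, 0.0410, 0.0374 from 10 to 60 min, 0.0309, 0.0420, 0.0472, 0.0486, 0.0422, 0.0444 from 70 to 120 min, and 0.0363 and 0.0403 at 130 and 140 min. It was low at the arrest, at 10 min and at 70 min and high at 30 and 40 min and from 90 to 120 min. Among the 5 members past the 2-fold threshold in both cycles, the order of the maxima was thus the same in both. SWI4, STB1 and YOX1 had theirs at 10 and 70 min and NRM1 and YHP1 at 30 and 90 min. Of the other members, MBP1 also had its maxima at 30 and 90 min, while WHI5 and SWI6 had theirs at 20 and 90 min. The sampling of 10 min limits this order, and with no replicate columns neighbouring time points cannot be separated by their spread.

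**Figure D2:**
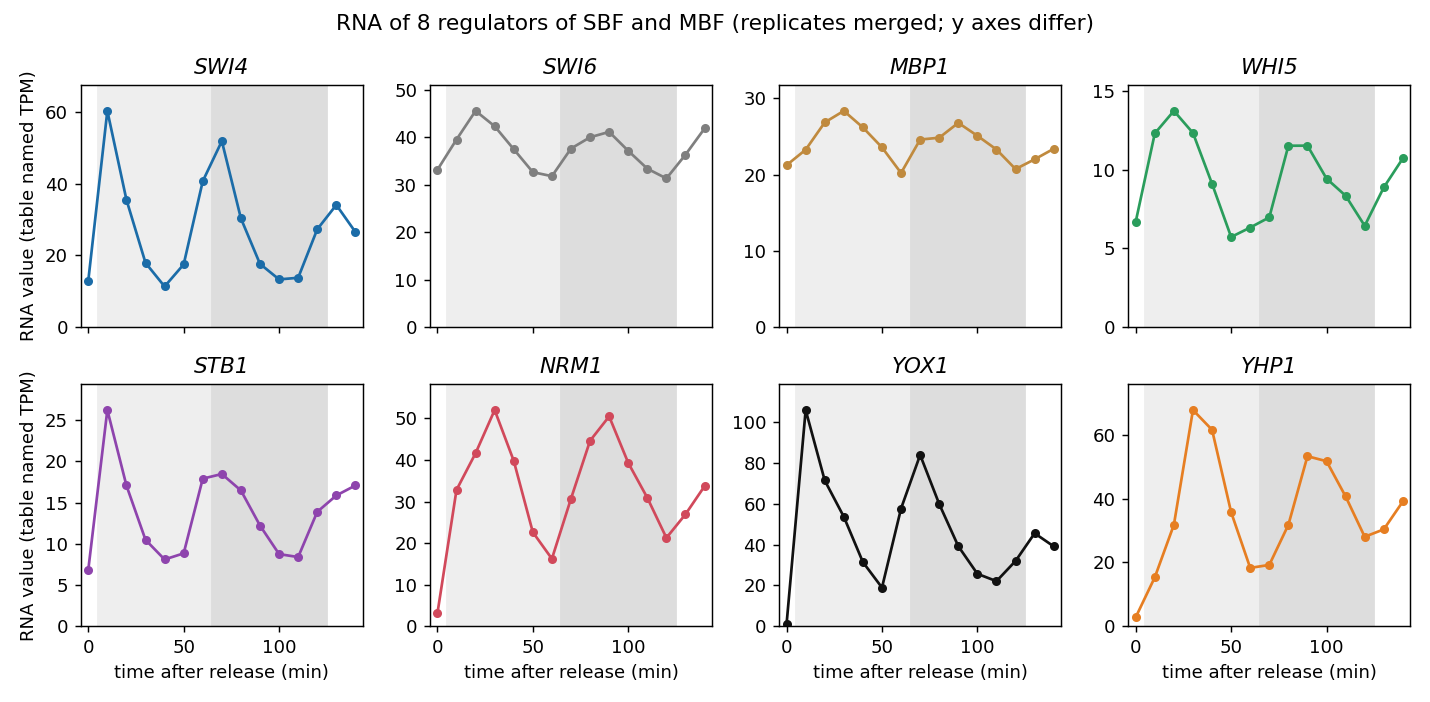
RNA value of each member (y axis, from the table named TPM, scale differing between panels) against time after release (x axis, min), with replicates merged. Light and dark shading mark 10 to 60 and 70 to 120 min. SWI4, STB1 and YOX1 have maxima at 10 and 70 min, NRM1 and YHP1 at 30 and 90 min, and SWI6 and MBP1 vary by less than 1.5-fold.

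In the chromatin tables fewer members passed the folds set here. The promoter score, taken as log2 and relative to the median of all promoters at each time because its sum over all genes was 119 at 130 min against 157 at the arrest, swung at least 1.5-fold in both cycles in 1 member, YHP1, against 1.97% of all genes. Its relative swings were 1.55-fold and 1.72-fold. This call rests on single time points. Without 70 min the smaller swing was 0.27 on the log2 scale, and without 10 min it was 0.41, both under the threshold. The nucleosome score swung by at least 0.32 on the log2 scale in both cycles in 1 member, YOX1, against 2.31% of all genes, by 1.45-fold and 1.27-fold. No member passed when 90 or 110 min was left out, against 2.00% and 1.93% of all genes. The entropy, relative to the median of all genes, swung by at least 0.1 in both cycles in 3 members, SWI4, NRM1 and YHP1, against 15.2% of all genes. The entropy swings of SWI4 were 0.23 and 0.21, rank 19 of all genes, those of NRM1 were 0.19 and 0.12, and those of YHP1 were 0.13 and 0.11. Without 70 min only SWI4 passed, against 11.1% of all genes. The median promoter swings of the members were 0.41 and 0.37 on the log2 scale, beside 0.32 and 0.28 over all genes, and the median nucleosome swings were 0.20 and 0.20, beside 0.20 and 0.15. The relative entropy swings of the members had medians of 0.15 and 0.087, beside 0.098 and 0.071. Standardized per gene, the mean of 20 and 30 min minus that of 0, 10, 50 and 60 min was 1.67 at the median member and 1.57 at the median gene. In the second cycle, the mean of 80 and 90 min minus that of 70, 110, 120 and 130 min was 0.87 at the median member and 0.98 at the median gene. SWI4 and YHP1 had the lowest values of the members in both cycles, with 0.92 and 0.38 for SWI4 and 0.35 and 0.53 for YHP1. SWI6 stood high in both, with 2.11 and 1.69, while MBP1 had 2.15 and 0.86.

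**Figure D3:**
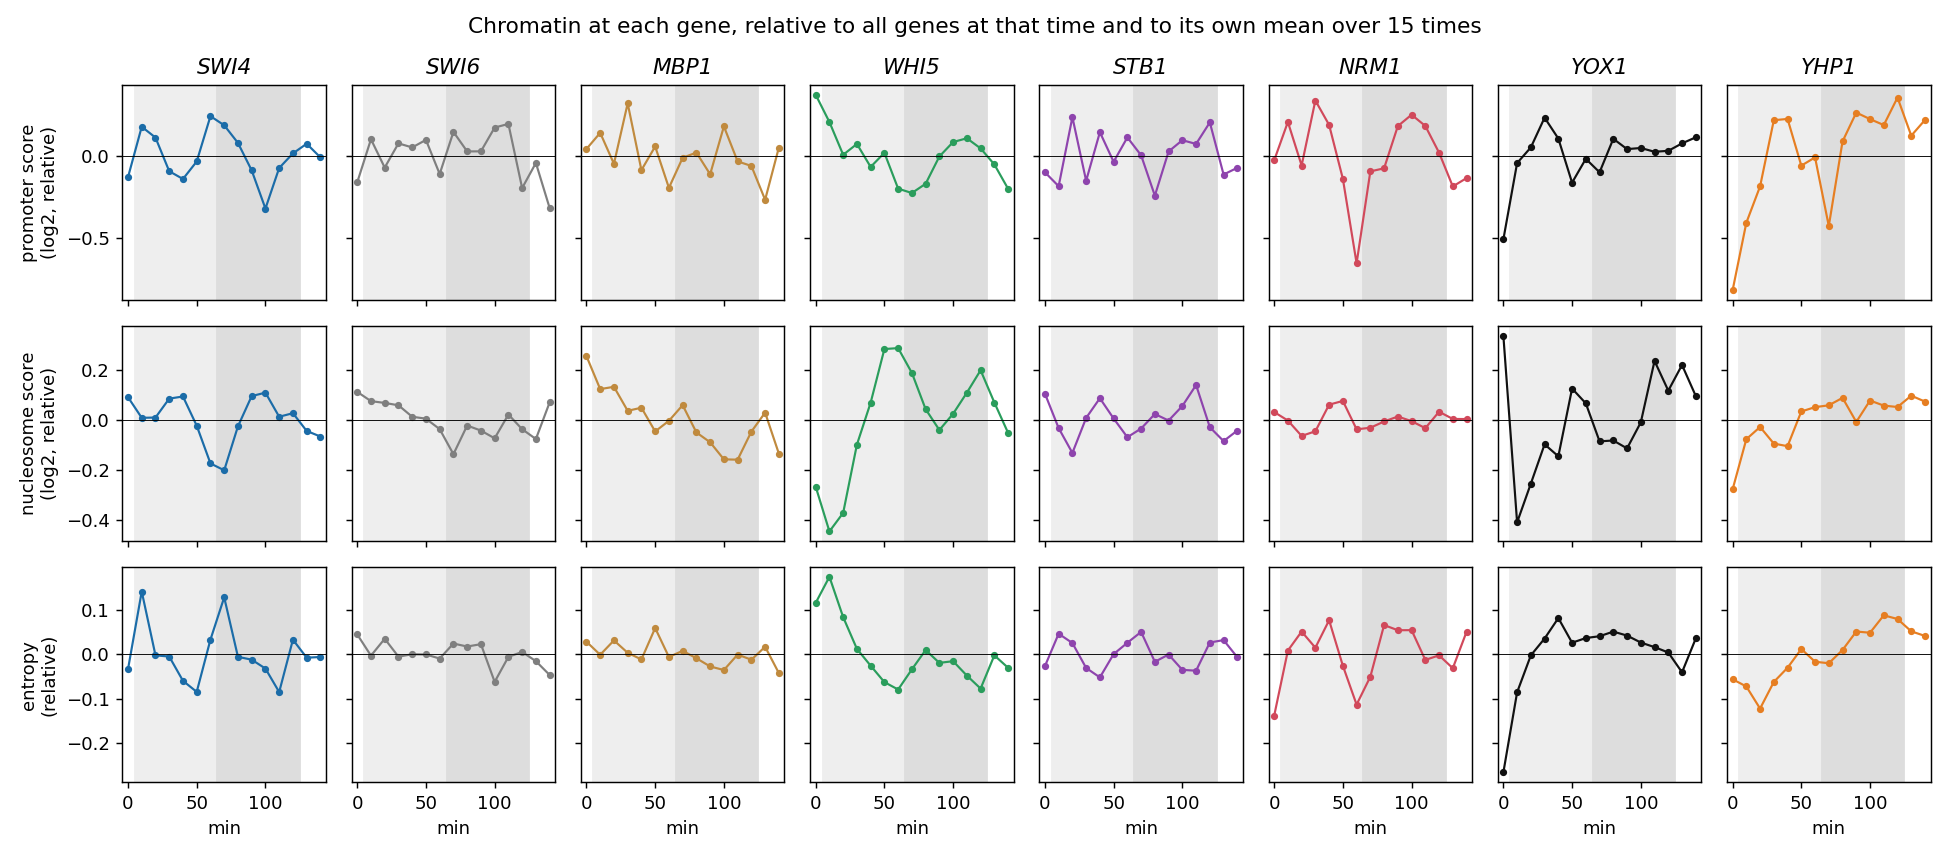
Promoter score, nucleosome score (both log2) and entropy of each member (y axes), relative to the median of all genes at that time and to the member's own mean over the 15 time points, against time after release (x axis, min). Shading marks 10 to 60 and 70 to 120 min. The entropy of SWI4 stands out at 10 and 70 min, the nucleosome score of YOX1 is highest at the arrest and lowest at 10 min, and the promoter score of YHP1 is low at the arrest, 10 and 70 min.

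RNA and chromatin were compared within each gene over the 15 time points, after the median course of all genes had been removed from both. Neighbouring time points are not independent and the merged libraries of a time point come from the same cultures, so r is given as a description, with no p. RNA and promoter score had r of at least 0.5 in 3 of the 8 members, SWI4 (0.91), YHP1 (0.88) and YOX1 (0.74), against 18.9% of all genes. RNA and nucleosome score had r of -0.5 or lower in 4 members, SWI4 (-0.76), STB1 (-0.76), YOX1 (-0.69) and WHI5 (-0.56), against 25.2% of all genes. RNA and entropy had r of at least 0.5 in 4 members, NRM1 (0.83), SWI4 (0.82), STB1 (0.80) and YOX1 (0.70), against 23.6% of all genes. The median r of the members was 0.32, -0.50 and 0.53 for the 3 measures, beside 0.15, -0.21 and 0.18 over all genes. SWI4 and YOX1 passed all 3 limits, and SWI6 and MBP1 passed none.

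Several of these values depended on the arrest, where YOX1, YHP1 and NRM1 had their lowest RNA. Without it, the r of YOX1 was 0.050 with the promoter score and -0.33 with entropy, while that with the nucleosome score was -0.65. The r of YHP1 with the nucleosome score was -0.19 without the arrest, against 0.52 with it. NRM1 had r = 0.72 with the promoter score without the arrest, against 0.38 with it. WHI5 had r = 0.61 with entropy without the arrest, against 0.35 with it. The values of SWI4 were 0.91, -0.73 and 0.84 without the arrest. When the 2 time points with the RNA farthest from the gene's median were left out, an alternative chosen after seeing the data, SWI4 had 0.91, -0.84 and 0.77 and YHP1 had 0.66 with the promoter score. Spearman's rho was 0.95, -0.77 and 0.81 for SWI4, and 0.17, -0.68 and 0.14 for YOX1.

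**Figure D4:**
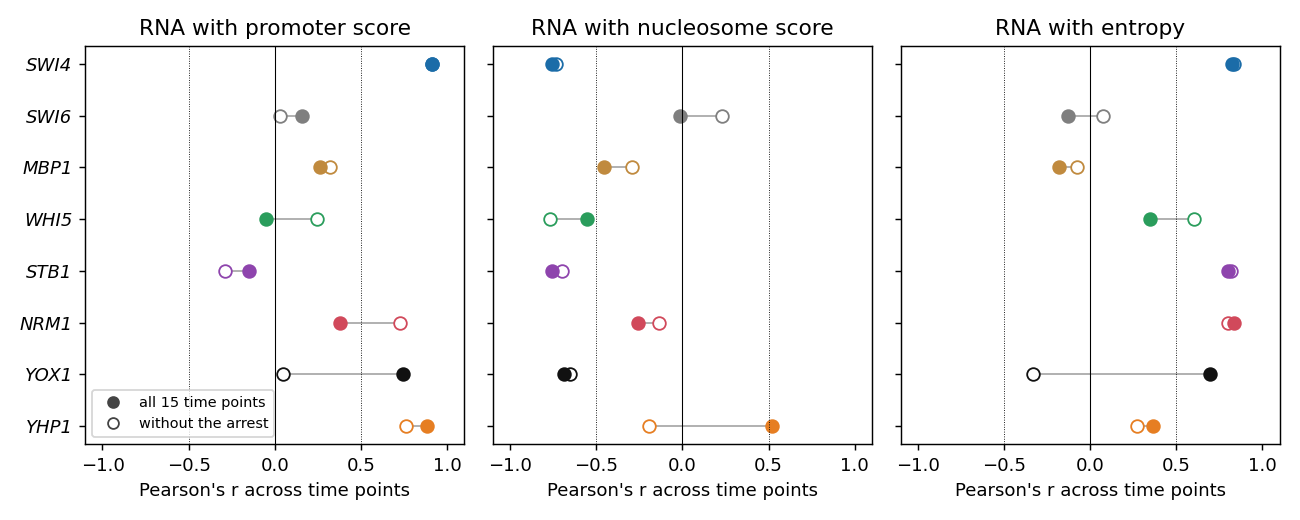
Pearson's r between RNA and each chromatin measure (x axis) for the 8 members (rows), over all 15 time points (filled) and without the arrest (open). Dotted lines mark -0.5 and 0.5. SWI4 and STB1 keep their places without the arrest, while YOX1 has 0.050 without the arrest against 0.74 with it for the promoter score, and -0.33 against 0.70 for entropy.

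The genes whose RNA courses were most like each member were taken among the 5202 genes with a mean RNA value of at least 5, by Pearson's r over the 15 time points. The nearest to SWI4 was MSA2 (r = 0.99), whose product binds SBF and MBF, followed by RLF2, a subunit of a chromatin assembly factor (0.98), and YDL156W (0.97). RLF2 was also nearest to STB1 (0.98), with TOF1, which acts at replication forks (0.98), and YJR030C (0.97). PCL1, a G1 cyclin gene and SBF target, was nearest to YOX1 (0.98), with RFC5 and GEA2 (0.97 each). NRM1 was nearest to HTA2, a histone H2A gene with a near-identical copy (0.98), SRS2 (0.98) and FHL1 (0.98). For YHP1 these were YOR246C, REB1 and RHO3 (0.98 each). WHI5 was nearest to EMP24, PMI40 and PMT2 (0.94 to 0.95), genes of the secretory pathway and of mannose addition. SWI6 was nearest to ERP2, KIP1 and SPC105 (0.94 to 0.96) and MBP1 to ELM1, DYN3 and CLB4 (0.96 each). Within the set, the pairs with the highest r were SWI4 and STB1 (0.96), SWI6 and WHI5 (0.91) and NRM1 and YHP1 (0.88).

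The gene lists below were chosen from known cell cycle genes, with earlier results of these data known. Over all 5590 genes, 4.36% had a 2-fold RNA swing in both cycles. At 10 min 9.62% were at least 2-fold higher than at the arrest and 4.36% were 2-fold lower. Of the known targets, all 14 MBF genes on the list used here had a 2-fold RNA swing in both cycles and all 14 were at least 2-fold higher at 10 min than at the arrest. By the smaller swing of both cycles, the first were CLB6, an S phase cyclin gene (4.25 and 3.0), and MCD1, the cohesin subunit gene (3.73 and 2.06). Of 15 SBF targets, 9 passed the fold in both cycles, 9 were 2-fold higher at 10 min than at the arrest and 3 were 2-fold lower, namely HO, PCL2 and KRE6. HO, the mating type switching endonuclease gene, had swings of 3.51 and 2.54, with maxima at 60 and 70 min, and TOS6 had 3.04 and 1.92. Of the 6 early cell cycle box genes, 3 passed the fold, among them the helicase genes MCM7 (2.39 and 1.40) and MCM5 (1.88 and 1.30), both with maxima at 60 and 120 min. SWI4 had its highest value of the second cycle, 51.9, at 70 min, and 34.1 at 130 min, outside the cycles used here. The maxima of MCM7 and MCM5 lay at the last time point of each cycle, so no lag between them and SWI4 can be read from these times. Not every gene of this list had its maxima there. YOX1 and YHP1 were at 57.7 and 18.3 at 60 min and at 31.98 and 28.0 at 120 min. CLN3, the upstream G1 cyclin gene, had swings of 0.72 and 0.78 with maxima at 50 and 70 min. Of 10 partners and upstream regulators, CLN3 included, 3 passed the fold, PCL9 (4.58 and 2.48), MSA2 (2.87 and 2.10) and MSA1. The maxima of HO, PCL9 and MSA1 lay at 60 and 70 min, neighbouring time points on either side of the boundary between the cycles. They may belong to 1 rise cut by that boundary, so a repeat cannot be read from them. With the maxima also repeated within 10 min, 14 MBF genes, 8 SBF targets, 2 early cell cycle box genes and 1 partner, MSA2, passed. Over all genes this share was 3.4%.

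The genes next to the members' 5′ ends did not all share their courses. SWI4 is divergent from LSM4, 1355 bp away, with RNA swings of 0.15 and 0.55. YHP1 is divergent from PPN1 (swings of 0.14 and 0.30), SWI6 from VTA1 (0.52 and 0.31) and WHI5 from TGL5 (0.53 and 0.39), while YOX1, NRM1 and MBP1 follow TSA1 (0.70 and 0.53), LRO1 (0.52 and 0.27) and YDL057W (0.79 and 0.32) on the same strand. None of these 7 neighbours passed the 2-fold threshold in either cycle, which does not by itself show whether a course was shared. By r over the 15 time points, VTA1 had 0.71 with SWI6, TGL5 0.58 with WHI5 and LSM4 0.56 with SWI4. PPN1 had -0.0046 with YHP1, LRO1 -0.084 with NRM1, YDL057W -0.17 with MBP1 and TSA1 -0.58 with YOX1. No listed gene overlapped a member.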

How the data were processed

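MNase-seq and total RNA-seq were measured in 59 libraries. The authors aligned reads to the R64 (sacCer3) genome with Bowtie 0.12.7, kept MNase-seq fragments with a single alignment, drew equal numbers per time point, removed mitochondrial and ribosomal DNA and merged the replicates. All values deposited by the authors were treated as scores: an RNA value from a table named TPM, a promoter subnucleosome score, whose definition is not given in the sources used here, a gene-body nucleosome score (cross-correlation with a model nucleosome, which the methods divide by copy number; whether the table includes this is not stated) and its Shannon entropy. The RNA quantification tool and its use of strand are not given in the sources used here. The depth of single genes is unknown, and no column of another series was used.

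Swings were the highest minus the lowest value within 10 to 60 and 70 to 120 min, on log2(value + 1) for RNA, and for chromatin relative to the median of all genes at that time. Thresholds were 2-fold for RNA, 1.5-fold for the promoter score, 0.32 on the log2 scale for the nucleosome score and 0.1 for entropy. Without replicate columns no test was possible. The genes named were the 8 members, the 3 genes most like each, their 5′ neighbours, CLN3 and the 2 genes of each list with the largest smaller swing; MSA1, PCL2 and KRE6 were named after their values were seen. Members and lists were chosen with earlier results of these data known. In the labels, the times of Replicate 1 after release run 10 min later than the aligned times, while its arrested sample stays at 0 min, and the 10 min MNase-seq library of Replicate 2, whose description and treatment conflict, was placed by its time label. On simulated courses of 5590 genes with a noise of 0.05 (SD, log2), the RNA swing rule called 200 of 200 genes given swings of at least 1.5 on the log2 scale and 0 of the others. The noise was set and not measured. It was so small beside the 2-fold threshold that the other genes could hardly be called, so the 0 gives no error rate for these data. Swings were put only into genes with higher mean RNA, which left out STB1 and WHI5. The smaller swings of STB1 (1.05), NRM1 (1.21) and YHP1 (1.42) lie below any simulated, so this result does not cover members near the threshold. Protein sequences were not used here, and the promoter sequences of 2 members are not reported here. Python 3.11.15, numpy 2.4.6, pandas 2.3.3 and matplotlib 3.10.9 were used.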

Additional observations from a re-analysis of the deposited data

Results flagged for a closer look

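The RNA of 3 members had differences of opposite sign in the 2 cycles when 10 min was set against 50 min and 70 min against 110 min, on the log2(value + 1) scale. WHI5 was 0.98 higher at 10 than at 50 min and differed by -0.23 between 70 and 110 min, so that the cycles differed by 1.21. NRM1 differed by 0.52 in the first cycle and by -0.0096 in the second, a difference of 0.53. MBP1 differed by -0.018 in the first cycle and by 0.076 in the second, a difference of -0.094. Both values of MBP1 and the second of NRM1 are too small to show a direction. These differences were not tested, and 110 min has 1 RNA library.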

How the results depend on the processing

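The count of members with a 2-fold RNA swing in both cycles was 5. It was 3 with a pseudocount of 10 and 3 with cycles of 20 to 70 and 80 to 130 min. It ran from 3 to 5 when single time points were left out, with 3 without 70 min. The release count of 5 was 4 with a pseudocount of 10, without YHP1, and 5 with the other alternatives. The promoter count of 1 was 0 with values as deposited and 0 with the shifted cycles, and 0 to 1 without single time points (0 without 10 or 70 min). The nucleosome count of 1 ran from 0 to 1 (0 without 90 or 110 min). The entropy count of 3 was 5 with values as deposited, where 33.5% of all genes passed against 15.2% in relative values. It was 1 with the shifted cycles (13.2% of all genes) and 1 to 3 without single time points, with 1 without 70 min (11.1%). The members with r of at least 0.5 between RNA and entropy were 4, and 8 when the median course was kept, where 25.5% of all genes passed. Without single time points the counts by r were 3 for the promoter score, 3 to 5 for the nucleosome score and 4 for entropy. Equal counts did not always hold the same members. Without the arrest, NRM1 took the place of YOX1 for the promoter score, and WHI5 took its place for entropy. Among values of r past 0.5 in size, 2 changed sign without the arrest, the r of YHP1 RNA with the nucleosome score (-0.19, and -0.55 without the 2 most extreme time points) and that of YOX1 RNA with entropy (-0.33). Another 3, smaller, values also changed sign, those of SWI6 with the nucleosome score (0.23) and entropy (0.077) and that of WHI5 with the promoter score (0.24). Over all single time points left out, the first 2 ran from -0.19 to 0.65 and from -0.33 to 0.85. The cause of these changes was not tested. Of the alternative values of these counts, 111 stayed within 1.5 times and 13 did not. No paired analysis was possible because each column holds both replicates together, and leaving out a replicate was not run for the same reason. The protein comparisons planned were not run. Without a spread between replicates, small differences, such as those of SWI6 and MBP1, cannot be placed against experimental error.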
